A study of Mus musculus with 12 samples.

Results

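The neutrophil-attracting CXC chemokines Cxcl1, Cxcl2, Cxcl3, Cxcl5 and Ppbp, the 5 mouse genes whose proteins bind the receptor CXCR2, were followed in ear skin of mice injected with IL-17A and IL-36γ. The members were chosen by name as the CXCR2 ligands, and their symbols were matched to Ensembl genes, so that 5 of the 50684 genes of the count table were selected by name. Total RNA of the ears of 12 female C57BL/6 mice, 8 weeks old, was sequenced after depletion of ribosomal RNA, with 3 mice in each of 4 groups. The groups received intradermal injections of PBS, IL-17A, IL-36γ or IL-17A + IL-36γ into the ear pinna. The labels give 1 µg of each cytokine in 5 µL of PBS. Per the methods of the study, treatment ran over 4 consecutive days, and tissue was taken on day 4. All mice were wild type and all groups, PBS included, were injected, so an ear without an injection was not part of the comparison. Each group of the study held 5 mice, of which 3 were sequenced. Each sample is a whole piece of ear, in which more cells of a type and more RNA per cell cannot be told apart.

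These chemokines are small secreted proteins that draw neutrophils out of the blood along a gradient. CXCR2, a receptor coupled to a G protein, sits on the neutrophil surface and recognises the ELR motif in front of the first cysteines of each ligand. In skin, keratinocytes, fibroblasts, endothelial cells, macrophages and the neutrophils themselves can make them, IL-17A and the IL-1 family (to which IL-36γ belongs) are known to induce them through NF-κB and IκBζ, and IL-17A is also known to prolong the life of the Cxcl1 transcript. In psoriasis, neutrophils gather in the epidermis as microabscesses. Ppbp, also called Cxcl7, differs from the others in that it is best known from the granules of platelets.

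All 5 genes lie on the plus strand of chromosome 5 (GRCm38, GENCODE vM21) in a cluster of 146.579 kb that also holds Pf4 and Cxcl15. Cxcl5 spans 90759360 to 90761624, Ppbp 90768518 to 90770063, Cxcl3 90786103 to 90789600, Cxcl1 90891241 to 90893115 and Cxcl2 90903871 to 90905938. The coding transcripts of Cxcl1, Cxcl2, Cxcl3 and Cxcl5 have 4 exons and that of Ppbp has 3. No member overlaps another annotated gene. Cxcl2 and Cxcl3 share 100 stretches of 76 bases in their exons, 4.523% of those of Cxcl2 and 2.748% of those of Cxcl3, so a small part of their reads could belong to either.

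The stretch just upstream of the start site is shown for the 4 members with a RefSeq entry (GRCm38.p6, 150 bases, plus strand). Cxcl1, Cxcl2 and Cxcl3 share a run of letters there, and its part in their levels was not tested. The entries are chr5:90891095-90891244 for Cxcl1, chr5:90903749-90903898 for Cxcl2, chr5:90785951-90786100 for Cxcl3 and chr5:90768368-90768517 for Ppbp. Capitals mark GGGAATTTCCC, at 11 letters the longest run shared by the upstream bases of Cxcl1, Cxcl2 and Cxcl3, which holds a form of the motif bound by NF-κB (κB).
Cxcl1: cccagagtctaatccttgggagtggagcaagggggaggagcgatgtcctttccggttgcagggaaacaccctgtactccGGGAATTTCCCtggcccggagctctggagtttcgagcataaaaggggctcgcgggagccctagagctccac
Cxcl2: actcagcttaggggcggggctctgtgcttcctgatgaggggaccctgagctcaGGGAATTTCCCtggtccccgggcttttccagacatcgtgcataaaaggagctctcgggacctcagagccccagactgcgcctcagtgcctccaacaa
Cxcl3: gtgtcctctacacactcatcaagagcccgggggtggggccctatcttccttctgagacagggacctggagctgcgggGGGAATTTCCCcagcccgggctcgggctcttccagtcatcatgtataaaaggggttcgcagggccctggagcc
Ppbp: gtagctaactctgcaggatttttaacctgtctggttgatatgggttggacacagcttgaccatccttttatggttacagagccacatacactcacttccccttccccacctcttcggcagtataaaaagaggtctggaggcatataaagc
The run starts at −71 in Cxcl1, −97 in Cxcl2 and −73 in Cxcl3, counted from the RefSeq start site, and was not found on either strand in the 250 upstream bases of Ppbp, Pf4 or Cxcl15. For Cxcl1 and Cxcl2 that start site lies inside the GENCODE span given above. Their printed stretches therefore reach into these genes, and positions counted from the GENCODE start would differ. Among all 32851 RefSeq promoters of the same length, 14 (0.0426%) hold this exact run. The run was defined from Cxcl1, Cxcl2 and Cxcl3, so its presence in them was fixed and its rarity is no test. Other forms of the κB motif were not searched. Of the aligned bases, 83.5% were identical between Cxcl1 and Cxcl2, 79.1% between Cxcl1 and Cxcl3 and 82.6% between Cxcl2 and Cxcl3, against 60.5 to 74.8% for alignments of other pairs in the cluster. The exact letters TATAAA occur, among the promoters searched, in those of Cxcl3, Ppbp and Cxcl15, and in 12.4% of all promoters. Cxcl1, Cxcl2 and Cxcl3 all hold ATAAAAGG, their next longest shared run (8 letters), and variants of TATAAA were not searched. TTGCNNAA, a form of the C/EBP motif, occurs, among the promoters searched in the cluster, in Pf4 alone and in 9.56% of all promoters. A match to letters is a description of the sequence and was not tested for binding.

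The libraries held between 25293468 and 34759293 counts. Levels are given as CPM, the count of a gene relative to the TMM-scaled size of its library, and the test is the quasi-likelihood test of edgeR, fitted on 19408 genes and all 12 libraries. A gene was called when its adjusted p-value (Benjamini-Hochberg over all genes tested) was below 0.05 and its log2 fold change was beyond 1 in either direction. Errors of log2 fold changes are standard errors. Markers of keratinocytes were abundant in every library, with a summed level between 11921 and 35339 CPM. Markers of skeletal muscle ranged from 50.6 to 1428 CPM and were at 91.7 CPM in replicate 1 of the PBS group against 1175 and 1428 CPM in the other PBS libraries. Within groups, Cxcl2, Cxcl3 and Cxcl5 were highest in the same library, which is replicate 2 after PBS, replicate 1 after IL-17A, replicate 2 after IL-36γ and replicate 1 after both cytokines, and values that change with these libraries are also given without them. The labels name no batch.

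Cxcl1, the chemokine also known as KC, rose after all 3 treatments, most of all where IL-36γ was given. In PBS ears it was at 0.830, 1.02 and 0.727 CPM, and after IL-17A at 3.04, 7.48 and 4.71 CPM. IL-36γ gave 16.3, 9.26 and 17.7 CPM. After both cytokines the 3 mice had 8.82, 9.66 and 22.3 CPM. The PBS libraries lay close together and below all others, the IL-17A libraries lay between, and the libraries with IL-36γ alone and with both cytokines overlapped at the top. IL-17A gave a log2 fold change over PBS of 2.56 ± 0.47 (adjusted p = 0.0152). IL-36γ gave 4.06 ± 0.46 (adjusted p = 0.000147) and the combination 3.98 ± 0.46 (adjusted p = 6.67e-05). As ratios these are 5.90, 16.6 and 15.8.

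Cxcl2, the chemokine also known as MIP-2, varied far more between mice of a group. In PBS ears it was at 0.194, 5.01 and 0.182 CPM, so that replicate 2 held 27.6 times the lowest library. The IL-17A libraries had 16.9, 1.60 and 1.33 CPM and the IL-36γ libraries 4.06, 10.7 and 3.89 CPM. After both cytokines it was at 28.4, 11.7 and 11 CPM, above every library of the other groups except replicate 1 of the IL-17A group. Neither cytokine alone gave a call, with log2 fold changes of 1.87 ± 1.13 for IL-17A (adjusted p = 0.28) and 1.79 ± 1.12 for IL-36γ (adjusted p = 0.246), whereas the combination did, at 3.23 ± 1.13 (adjusted p = 0.0357). Without replicate 1 of the IL-17A group the value of IL-17A was −0.33, and without replicate 2 of the PBS group that of IL-36γ was 5.02 (adjusted p = 0.0313). The call of the combination was lost without PBS replicate 1, PBS replicate 3 or replicate 1 of the combination, with log2 fold changes of 2.69, 2.71 and 2.65. Without PBS replicate 2 it was 6.47 (adjusted p = 0.00468).

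Cxcl3, a close relative of Cxcl2, was the least abundant member. It had 2, 19 and 0 counts in the PBS libraries, where the count of 0 allows up to 0.0909 CPM (3 counts, counting error only). It had 50, 1 and 4 counts after IL-17A, 9, 33 and 6 after IL-36γ, and 82, 41 and 31 after both. The libraries that were high for Cxcl2 were high here too, and the combination alone lay above all PBS libraries. Its log2 fold change was 3.22 ± 1.11 after both cytokines (adjusted p = 0.0336), against 1.75 ± 1.24 after IL-17A (adjusted p = 0.358) and 1.34 ± 1.26 after IL-36γ (adjusted p = 0.441). Without replicate 1 of the IL-17A group the value of IL-17A was −1.12. Without PBS replicate 2 the values were 4.37 for IL-17A (adjusted p = 0.19), 3.97 for IL-36γ (adjusted p = 0.17) and 5.85 for the combination (adjusted p = 0.0172), and without replicate 2 of the IL-36γ group that of IL-36γ was 0.34. The call of the combination was lost without PBS replicate 1, PBS replicate 3, or replicate 1 or 2 of the combination, at values between 2.64 and 3.36. It was also lost with DESeq2.

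Cxcl5, the chemokine also known as LIX, had the highest ratio over PBS of the members after the combination. PBS ears were at 0.360, 0.906 and 0.0606 CPM, and IL-17A ears at 11.3, 1.73 and 1.25 CPM. IL-36γ gave 3.09, 4.78 and 1.14 CPM. The combination gave 21.6, 9.51 and 9.0 CPM. Every treated library was above every PBS library, and after the combination every library was above every IL-36γ library. IL-17A gave a log2 fold change of 3.39 ± 0.96 (adjusted p = 0.0447), and IL-36γ gave 2.74 ± 0.97 (adjusted p = 0.0528, not called). The combination gave 4.88 ± 0.95 (adjusted p = 0.0016), a ratio of 29.5. The IL-17A call was lost without any 1 of 9 libraries, and without replicate 1 of the IL-17A group the value was 1.70 (adjusted p = 0.263). The value of IL-36γ was called under 7 of its alternatives, among them DESeq2 (adjusted p = 0.0391).

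Ppbp rose after all 3 treatments. In PBS ears it was at 0.443, 0.368 and 0.273 CPM. IL-17A gave 2.14, 1.13 and 1.13 CPM and IL-36γ gave 1.83, 1.49 and 2.62 CPM. The combination gave 4.02, 1.87 and 4.61 CPM. All treated libraries were above all PBS libraries, while the 3 treated groups overlapped. The log2 fold change was 2.0 ± 0.43 after IL-17A (adjusted p = 0.0229). It was 2.43 ± 0.42 after IL-36γ (adjusted p = 0.00174) and 3.26 ± 0.41 after the combination (adjusted p = 0.00011). Its IL-17A call was lost if PBS replicate 2, PBS replicate 3 or IL-17A replicate 1 was left out, at values of 2.0, 1.83 and 1.59. Of 10 platelet markers 4 passed the filter on low counts, Gp1ba rose after IL-36γ (log2 fold change 1.36, adjusted p = 0.0321) and after both (1.25, adjusted p = 0.0344), and Gp5 fell by 1.40 after IL-17A and by 1.66 after IL-36γ. The summed level of the 10 was 14.4 to 21.2 CPM after PBS, 15.7 to 16.9 after IL-17A, 19.1 to 20.6 after IL-36γ and 20.6 to 23.1 after both, and its part in the change of Ppbp was not tested.

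**Figure D1:**
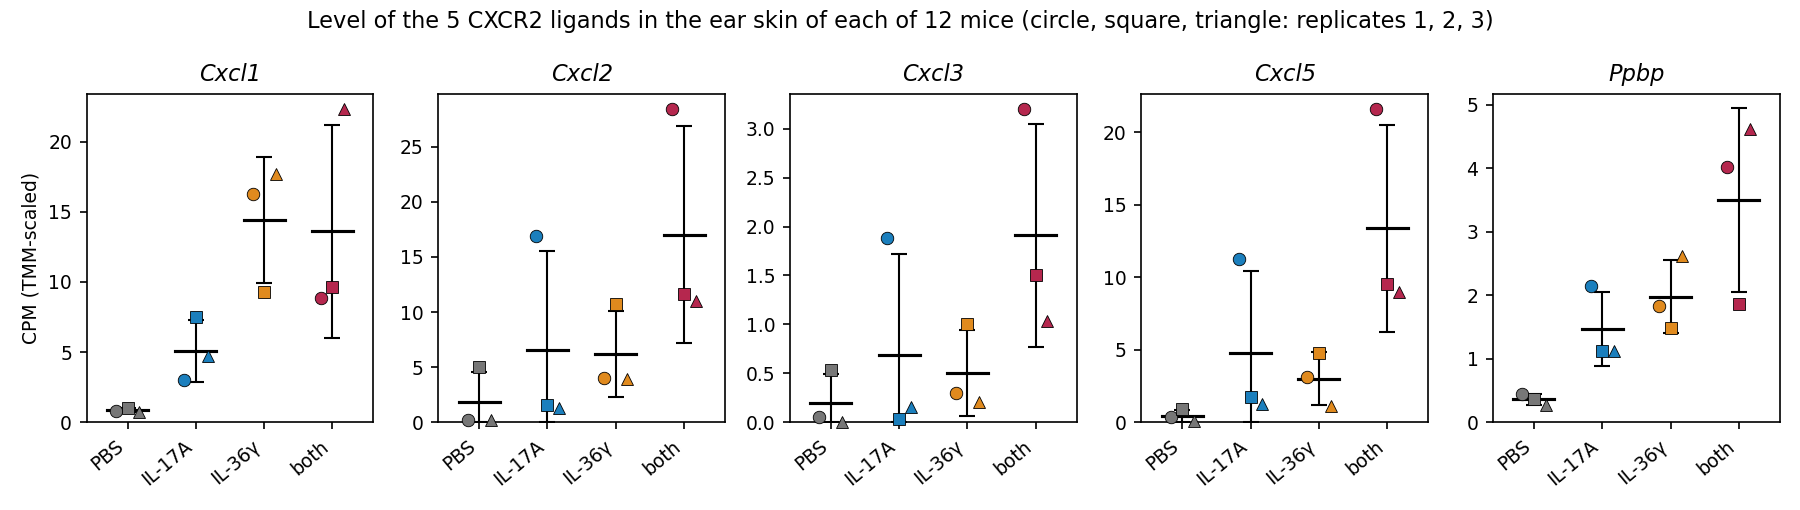
Level of each CXCR2 ligand (CPM after TMM scaling, linear axis from 0) in the 4 groups, with 1 point per mouse, horizontal bars for the mean and error bars for the SD (n = 3, cut at 0). The PBS points of Cxcl1 and Ppbp lie below all treated points, whereas 1 PBS point of Cxcl2 and more than 1 of Cxcl3 lie above treated points.

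Across the members, IL-17A against PBS raised Cxcl1, Cxcl5 and Ppbp, 3 of 5, where 1.07% of all genes tested were raised. IL-36γ against PBS raised Cxcl1 and Ppbp, 2 of 5, where 5.11% were raised. The combination raised all 5, where 7.35% were raised. These shares of all genes also apply to the counts of the other gene lists in the same comparisons. The median log2 fold change of the 5 was 2.0, 2.43 and 3.26, against 0.04, −0.02 and −0.03 over all genes tested. Every treated library was above every PBS library for 3 members after IL-17A (19.6% of all genes), for 3 after IL-36γ (22.4%) and for 5 after both (27%). These 3 comparisons share the PBS libraries. The 3 calls of IL-17A became 0 without PBS replicate 3 and 1 (Cxcl1) without PBS replicate 2 or IL-17A replicate 1. For the combination, the calls ran from 3 to 5 with single libraries left out. DESeq2 called 3 there, where Cxcl2 got no adjusted p-value.

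The combination was also set against each cytokine alone. Against IL-17A, Cxcl1 rose by a log2 fold change of 1.42 ± 0.39 (adjusted p = 0.0167) and Ppbp by 1.26 ± 0.36 (adjusted p = 0.0189), 2 of 5 members where 4.46% of genes were raised. All libraries were apart for Cxcl1, where 23% of genes had every library above, whereas for Ppbp the lowest library of the combination (1.87 CPM) lay under the highest of IL-17A (2.14 CPM). Cxcl2, Cxcl3 and Cxcl5 had values of 1.37 ± 1.03, 1.47 ± 0.97 and 1.49 ± 0.76 and were not called. They were called without replicate 1 of the IL-17A group, at 3.56, 4.33 and 3.18 (adjusted p = 0.0359, 0.0212 and 0.00791), and Cxcl1 was then not called (1.17, adjusted p = 0.053). No member was called without IL-17A replicate 3 or without replicate 3 of the combination.

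Against IL-36γ, the combination gave 0 calls among the 5 members with edgeR, 2 of them at an unadjusted p below 0.05, and 0 with DESeq2, and in this comparison 0% of all genes tested were raised. Cxcl1 differed by −0.08 (95% interval −0.89 to 0.74), which bounds a change in either direction to less than 1 on the log2 scale. For the other members the intervals were wide and lay mostly above 0, being −0.79 to 3.68 for Cxcl2, −0.27 to 4.02 for Cxcl3, 0.44 to 3.84 for Cxcl5 and 0.07 to 1.58 for Ppbp. For Cxcl2, Cxcl3 and Cxcl5 every library of the combination was above every IL-36γ library, which held for 9.33% of all genes. Cxcl5 had the largest value of the 5, 2.14 ± 0.78 (adjusted p = 0.236).

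IL-36γ against IL-17A raised Cxcl1, 1 of 5 members, by 1.5 ± 0.39 (adjusted p = 0.0402) where 1.25% of genes were raised. The call was lost without any 1 of 7 libraries, at values between 1.24 and 1.91. The other members were not called, with values of −0.08 ± 1.04 for Cxcl2, −0.41 ± 1.09 for Cxcl3, −0.65 ± 0.79 for Cxcl5 and 0.43 ± 0.37 for Ppbp. Without IL-17A replicate 1 the values of Cxcl2, Cxcl3 and Cxcl5 were 2.10, 2.45 and 1.02, so that their direction turned with 1 mouse left out.

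**Figure D2:**
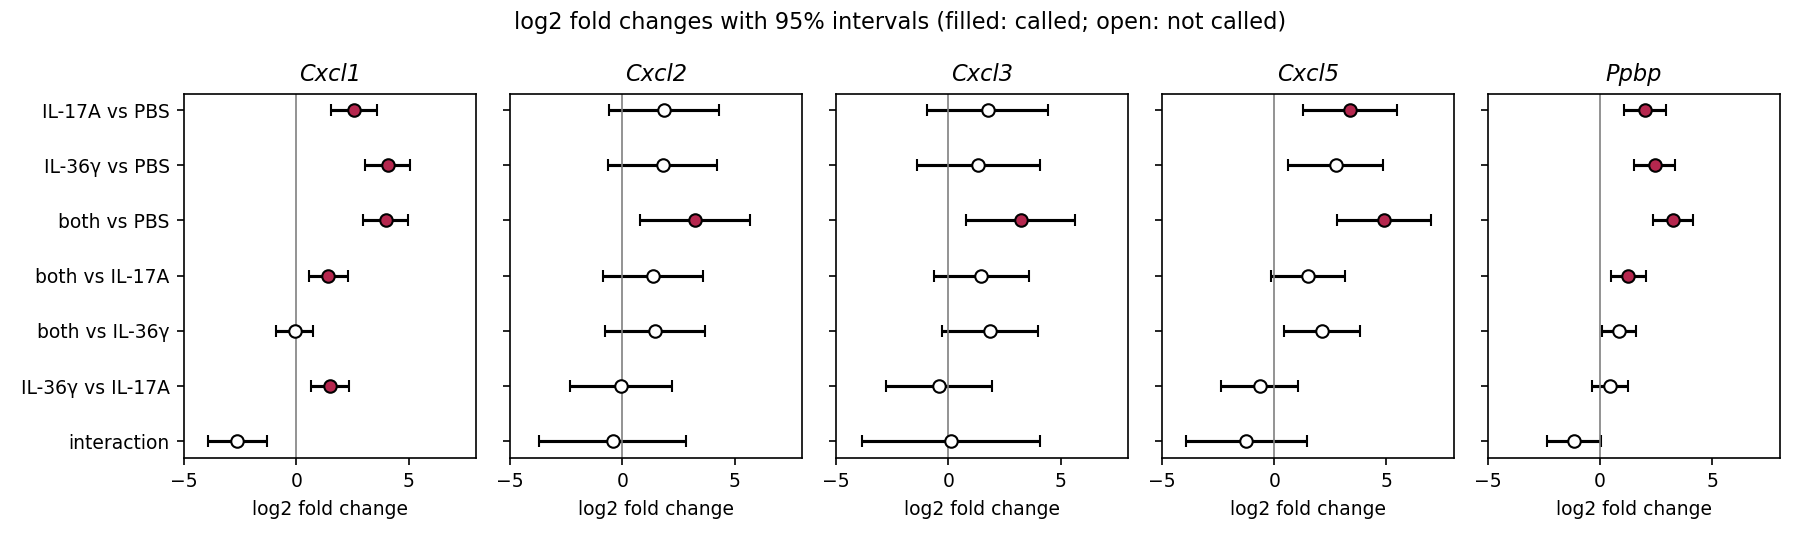
The log2 fold change of each ligand (x axis) in 6 comparisons and the interaction (y axis), with 95% intervals from edgeR, filled where called. Cxcl1 has a narrow interval around −0.08 in both against IL-36γ, and only both against PBS is filled for Cxcl2 and Cxcl3.

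Whether the cytokines added up was asked on the log2 scale, as the interaction, and on the linear scale, as the excess over the sum of the separate increases. The interaction compares the change by IL-17A with and without IL-36γ and was called at an adjusted p below 0.05, with no fold threshold. It was called for 0 of 5 members with edgeR, 1 of them (Cxcl1) at an unadjusted p below 0.05, where 0.551% of all genes were called, and for 1 with DESeq2. For Cxcl1 it was −2.64 ± 0.60 (adjusted p = 0.063), and it was called under 6 alternatives, with adjusted p from 0.000767 to 0.162 over all of them. It was −1.17 ± 0.56 for Ppbp and −1.25 ± 1.24 for Cxcl5, and for Cxcl2 and Cxcl3 its error exceeded its size.

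On the linear scale, Cxcl1 reached 13.6 CPM after both cytokines where the sum of the separate increases over PBS gives 18.6, a difference of −5.01 ± 5.25 (SE). Cxcl2 was above that sum by 6.00 ± 8.15 CPM, Cxcl5 by 6.05 ± 5.36, Cxcl3 by 0.915 ± 0.938 and Ppbp by 0.415 ± 0.962. These differences were near or under their standard errors. With single libraries left out, a choice made after the data were seen, the difference ran from −9.38 to −2.62 CPM for Cxcl1, from 0.310 to 11.1 for Cxcl2, from 0.271 to 1.51 for Cxcl3, from 1.94 to 9.31 for Cxcl5 and from −0.142 to 1.23 for Ppbp. The highest for Cxcl2, Cxcl3 and Cxcl5 came without IL-17A replicate 1 and the lowest without replicate 1 of the combination, while the lowest for Cxcl1 (−9.38 ± 2.94) came without replicate 3 of the combination.

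Divided by exon length, the make-up of the ligand pool can be compared. The summed level of the 5, in CPM per kb of exon, was 1.15, 3.95 and 0.760 after PBS, 18.3, 6.74 and 4.91 after IL-17A, 14.1, 14.4 and 14.4 after IL-36γ, and 34.6, 18.0 and 26.6 after both. All libraries of the combination were above those of the other groups except IL-17A replicate 1, which at 18.3 lay above the lowest of them. The IL-36γ sums were nearly equal although their parts were not. Cxcl1 made up 53.8% ± 16.9 (SD, n = 3) of the pool after IL-36γ and 29.0% ± 15.6 after both, Cxcl2 21.0% ± 13.1 and 30.3% ± 9.87, and Cxcl5 11.3% ± 6.83 and 26.6% ± 7.78. Without replicate 2 of the IL-36γ group and replicate 1 of the combination, also chosen after the data were seen, the means of Cxcl1 were 63.6% and 36.6%, those of Cxcl2 13.5% and 25.6% and those of Cxcl5 8.02% and 23.2%. Cxcl3 had a mean of at most 2.04% in every group, or of at most 5.09% with coding length. The shares overlap between the groups, and with the length of the coding transcript in place of all annotated exons the share of Cxcl1 was 65.8% after IL-36γ and 39.4% after both.

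**Figure D3:**
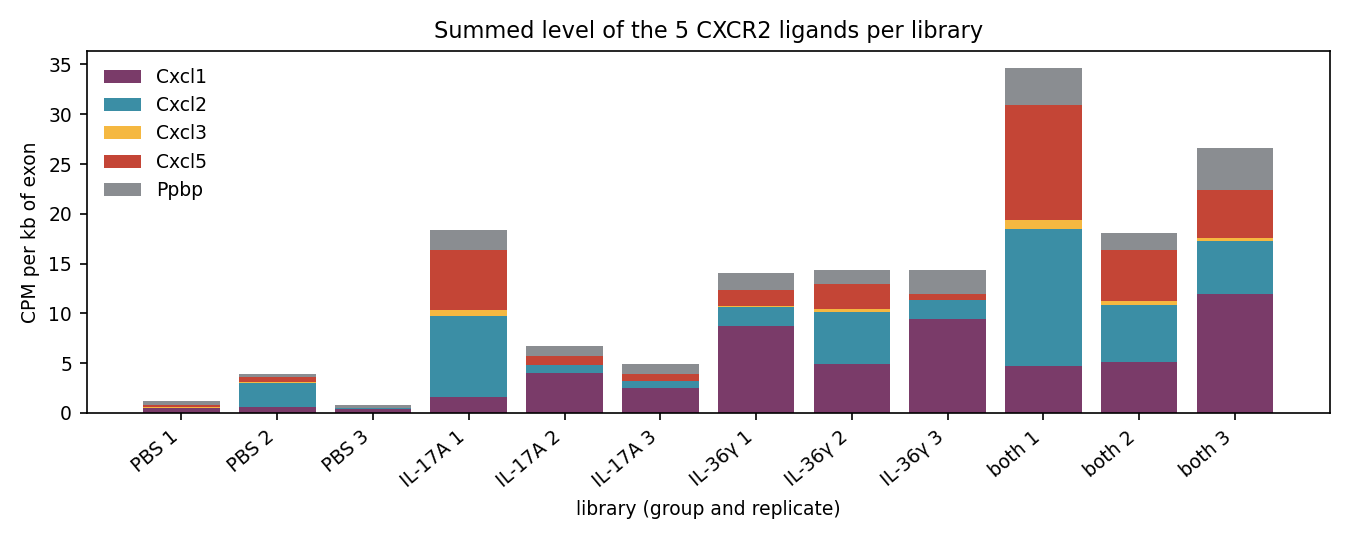
Level of the 5 ligands per exon length (CPM per kb, stacked bars from 0) in each of the 12 libraries. Cxcl1 makes up more than any other ligand in IL-36γ replicates 1 and 3, as in several other libraries, and Cxcl2 and Cxcl5 make up most of IL-17A replicate 1 and of replicate 1 of the combination.

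The members fell into different patterns over the 12 libraries. Cxcl2, Cxcl3 and Cxcl5 had the same highest library in all 4 groups, PBS replicate 2, IL-17A replicate 1, IL-36γ replicate 2 and replicate 1 of the combination, and in 3 of the 4 this library was the lowest for Cxcl1. Likeness was measured as the root-mean-square difference of log2 CPM, each gene centred at its mean over the 12 libraries, which share depth and injection between genes. Among 19407 other genes, Cxcl3 ranked 8 and Cxcl5 ranked 10 in likeness to Cxcl2, while Cxcl1 ranked 658. Ppbp ranked 21 in likeness to Cxcl1. With the reference gene exchanged, Cxcl1 ranked 887 in likeness to Ppbp, and Cxcl2 ranked 11544 in likeness to Cxcl1. In likeness to Cxcl1, Cxcl5 ranked 5848 and Cxcl3 ranked 15473. The difference also grows with the size of a gene's swings between libraries, so a far rank does not show an absent or opposite response.

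The genes most like Cxcl2 were Il1b, the cytokine IL-1β (difference 0.44), Trem1, a receptor of neutrophils and monocytes (0.50), and Gm5483 (0.66). Il1b was at 1.61, 12.4 and 1.12 CPM after PBS, 60.3, 11.5 and 9.94 after IL-17A, 18.6, 41.6 and 18.1 after IL-36γ, and 95.3, 45.3 and 60.0 after both. Its highest library in each group was that of Cxcl2. Il1b and Gm5483 were also the nearest genes of Cxcl5 (0.58 and 0.66), followed by Gm43181 (0.72), and those of Cxcl3 were the chemokines Ccl4 (0.53) and Ccl3 (0.58) and again Trem1 (0.60). Nearest to Cxcl1 were Il6, the cytokine IL-6 (0.62), Cfb, complement factor B (0.65), and Gm37703 (0.71). Nearest to Ppbp were Ctse, the protease cathepsin E (0.37), the receptor gene Cxcr2 (0.38) and Stat4, a transcription factor (0.38).

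Markers of mature neutrophils, taken as a sum, were highest in the same libraries as Cxcl2. Their summed level over 8 genes was 11.2, 24.8 and 11.6 CPM after PBS, 57.7, 21.7 and 29.5 after IL-17A, 48.6, 80.7 and 56.4 after IL-36γ, and 187, 95.4 and 130 after both. Trem1 is 1 of these 8. Singly, Ly6g, Retnlg and Mmp8 were highest in IL-36γ replicate 3, and the others of the list in IL-36γ replicate 2. They had 0.241, 5.44 and 3.24 CPM there, against 0.183, 4.39 and 2.86 CPM in replicate 2. Retnlg was also highest in PBS replicate 1 (0.803 CPM, against 0.538 in replicate 2). Of the list, 2 rose after IL-17A (Csf3r and Mmp8), 5 after IL-36γ and 8 after both, where 1.07%, 5.11% and 7.35% of all genes were raised. Ly6g, a defining marker, had 0 counts in all PBS libraries. It was at least 7.76-fold higher after both cytokines, against a floor of 3 counts per PBS library. The summed markers of monocytes and macrophages ran from 467 to 551 CPM after PBS, 784 to 989 after IL-17A, 1222 to 1367 after IL-36γ and 1190 to 1305 after both, with 1, 5 and 5 of 6 raised. The part of either in the levels of the ligands was not tested.

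**Figure D4:**
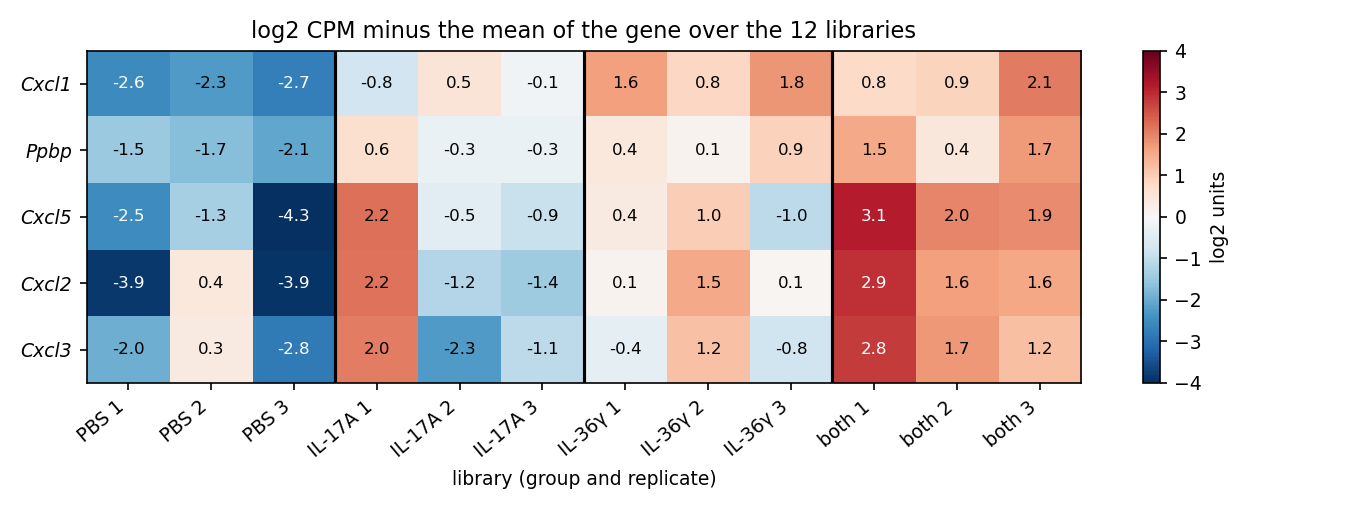
Log2 CPM of each ligand (rows) minus its mean over the 12 libraries (columns, by group and replicate), with the value printed in each cell. Rows Cxcl5, Cxcl2 and Cxcl3 are highest within each group in PBS 2, IL-17A 1, IL-36γ 2 and both 1. Row Cxcl1 shares this in PBS 2 alone and row Ppbp in IL-17A 1 alone.

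Of the receptors of the ligands, Cxcr2 rose after each treatment. It was at 6.34, 5.04 and 4.03 CPM after PBS, 25.8, 10.8 and 14.6 after IL-17A, 21.8, 25.8 and 17 after IL-36γ, and 59.7, 29.5 and 37.8 after both. The libraries of each treated group were above all PBS libraries, and those of the combination above all others. Its log2 fold change was 1.73 ± 0.34 (adjusted p = 0.0178), 2.06 ± 0.34 (adjusted p = 0.00125) and 3.04 ± 0.34 (adjusted p = 5.65e-05), and against IL-17A the combination was higher by 1.31 ± 0.32 (adjusted p = 0.0089). Against IL-36γ it was at 0.97 ± 0.31 (adjusted p = 0.199, not called). Cxcr1, the related receptor, had 0, 3 and 0 counts after PBS and 14, 4 and 14 after both, and was at least 4.48-fold higher than the floor of 3 counts per PBS library (adjusted p = 0.0263). It was not called with DESeq2, where Cxcr2 was the 1 call of the 3 receptors. Ackr1 is a decoy receptor of venular endothelium that binds many chemokines without signalling. It was not called against PBS, at 0.50, 0.45 and −0.04 in the same order. After IL-17A and after IL-36γ it passed the adjusted p (0.0394 and 0.0257) but not the fold threshold. Its interaction was −0.99 ± 0.19 (adjusted p = 0.0475).

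Of the neighbours in the cluster, Pf4 encodes platelet factor 4, which does not act through CXCR2. It was at 51.2, 41.4 and 34.1 CPM after PBS, 82.9, 58.8 and 69.8 after IL-17A, 119, 97.2 and 110 after IL-36γ, and 143, 98.7 and 118 after both. It rose after IL-36γ (1.36 ± 0.17, adjusted p = 0.000279) and after both (1.51 ± 0.17, adjusted p = 6.13e-05), and after IL-17A its value was 0.74 ± 0.17 and under the fold threshold. Cxcl15, a chemokine of lung epithelium, did not pass the filter, with at most 5 counts in a library.

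Beyond the cluster, 7 other genes of the neighbourhood were tested, all named after their values were seen. Next to Cxcl2, Mthfd2l, an enzyme of mitochondrial folate metabolism, was at −0.36, −0.37 and −0.38 and not called. It passed the adjusted p each time (0.0352, 0.011 and 0.00592) but not the fold threshold. On the far side of Cxcl5, Rassf6 was not called at 0.15, −0.33 and −0.22 (adjusted p = 0.417, 0.0576 and 0.154). Farther along lie genes of ligands of the EGF receptor. Epgn (epigen) rose after IL-17A (2.16 ± 0.56) and after both (2.19 ± 0.56), and Areg (amphiregulin) rose after IL-36γ (2.07 ± 0.46) and after both (1.75 ± 0.47). Gm19610, an antisense gene that overlaps Ereg, fell by 1.58 after both. Ereg (epiregulin) fell by 1.11 and 1.63 and Btc (betacellulin) by 1.31 and 1.94 after IL-36γ and after both.

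**Figure D5:**
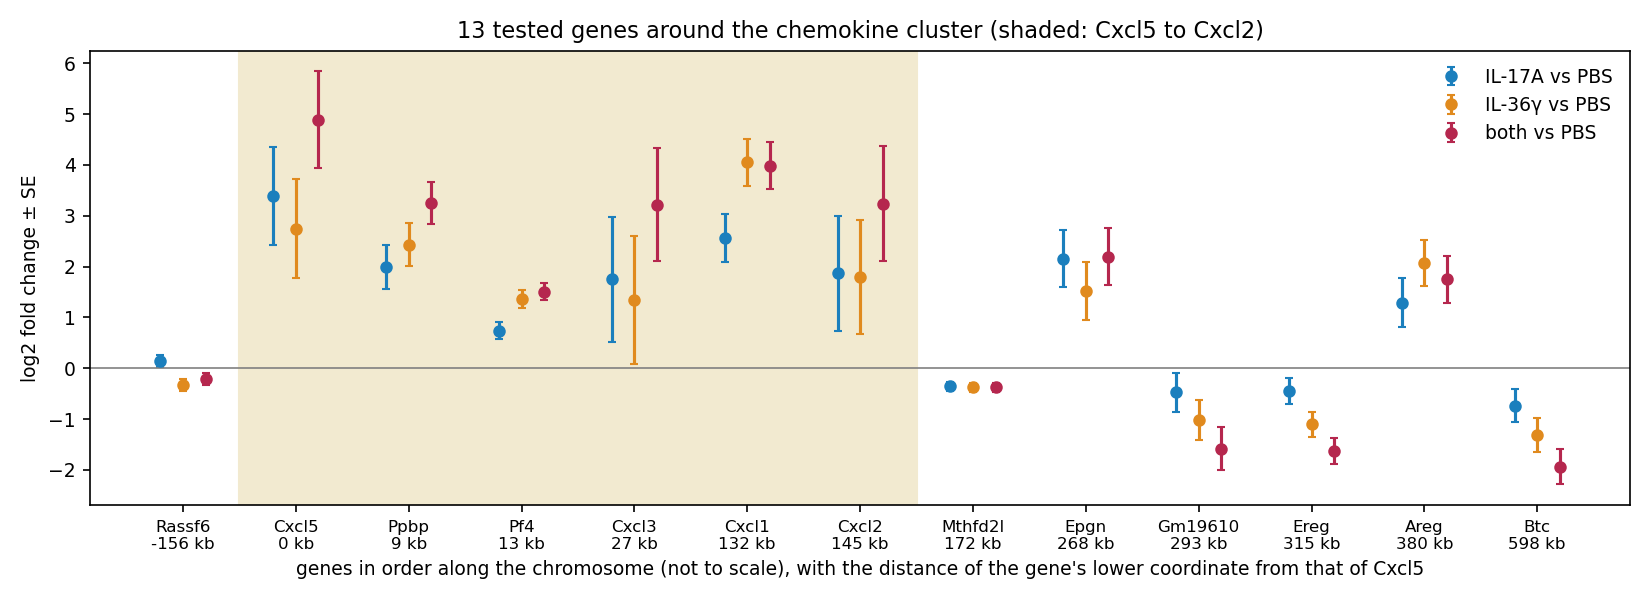
Log2 fold change over PBS with its standard error (y axis) of the 13 tested genes around the cluster, in their order along the chromosome (x axis, not to scale, with the distance from Cxcl5 in kb), for the 3 treatments. The 6 chemokines in the shaded stretch lie above 0 in all treatments, whereas Rassf6 and Mthfd2l lie within 0.5 of 0.

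Among the other CXC chemokines, which act on receptors other than CXCR2, 6 of 8 were tested. After both cytokines 3 rose, where 7.35% of all genes were raised. Cxcl9 and Cxcl10, ligands of CXCR3 known from the response to interferon-γ, rose by 3.50 ± 0.78 and 3.05 ± 0.71, and Cxcl13, which attracts B cells, by 2.71 ± 0.52. After IL-36γ alone, Cxcl9 (2.60 ± 0.78) and Cxcl13 (2.42 ± 0.53) rose. After IL-17A, 0 of 6 were called with edgeR, and 0 with DESeq2, and 2 of them, Cxcl12 (0.39, adjusted p = 0.0246) and Cxcl16 (0.57, adjusted p = 0.0152), passed the adjusted p but not the fold threshold and were those at an unadjusted p below 0.05. Cxcl12, Cxcl14 and Cxcl16 stayed under the fold threshold after every treatment, with values from −0.34 to 0.71, and Cxcl11 and Cxcl17 did not pass the filter. Cxcl9 had its highest library in replicate 2 of the combination, 16.7 CPM against 1.60 and 3.54 in the others, a different mouse from that of Cxcl2.

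The cytokines that can induce the ligands were called in 5 of 6 tested after both, where 7.35% of all genes were raised. Il1b rose by 3.72 ± 0.89, Il36a by 3.78 ± 0.30, Il36g by 1.82 ± 0.18, Il36b by 1.55 ± 0.25 and Tnf by 1.12 ± 0.24, while Il1a was at 0.48 ± 0.33. The 3 IL-36 genes also rose after IL-36γ alone, at 3.14, 1.38 and 1.16 for Il36a, Il36g and Il36b, and Il36a rose after IL-17A (1.37 ± 0.29). Il17a did not pass the filter.

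Genes of the receptors and adaptors for the injected cytokines were not called in the combination with edgeR (0 of 6, 4 at an unadjusted p below 0.05) or DESeq2 (0), as all were under the fold threshold. Their values ran from 0.02 to 0.78, and 4 passed the adjusted p. These were Myd88, the adaptor of the IL-1 receptor family (0.78 ± 0.11, adjusted p = 0.000211), Il17ra, a chain of the IL-17 receptor (0.67 ± 0.08, adjusted p = 8.99e-05), Il1rl2, the IL-36 receptor (0.44 ± 0.09, adjusted p = 0.00148), and Il17rc, another chain of the IL-17 receptor (0.38 ± 0.08, adjusted p = 0.00327). Of 7 transcription regulators, Nfkbiz, which encodes IκBζ, rose after IL-36γ (1.04 ± 0.11) and after both (1.20 ± 0.11), and after IL-17A it was at 0.86 ± 0.11 and under the fold threshold. Of 4 regulators of mRNA stability, Zc3h12a, which encodes the ribonuclease Regnase-1, rose after all 3 treatments (1.53 ± 0.15, 1.39 ± 0.15 and 1.88 ± 0.15), and Zfp36, which encodes tristetraprolin, rose after IL-36γ (1.18 ± 0.17).

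Csf3, the gene of the neutrophil growth factor G-CSF, was scarce. It was at 0, 0.113 and 0 CPM after PBS and 0.507, 0.476 and 0.669 CPM after both, and it rose in this comparison (3.72 ± 0.89, adjusted p = 0.00556). Csf2 did not pass the filter. Of 4 receptors for other neutrophil attractants, 3 rose after both, the formyl peptide receptors Fpr1 (4.31 ± 0.90) and Fpr2 (5.28 ± 0.71) and the complement receptor C5ar1 (1.01 ± 0.25).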

How the data were processed

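RNA of the ears of 12 mice was sequenced from stranded total RNA libraries. Per the submitters' processing notes and the methods of the study, the authors aligned reads to mm10 with STAR 2.5.2b and counted them per gene with featureCounts (Subread 1.5.1), and the deposited counts are without normalization. The strand setting is not given in the sources used here. Further tables hold the authors' fold changes and p-values, of which only the column of symbols was used. Samples were grouped by their labels.

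Genes were filtered with filterByExpr (minimum count 10), scaled by TMM and tested with the quasi-likelihood test of edgeR 4.0.16 in R 4.3.3, in 1 fit of the 4 groups. Alternatives were DESeq2 1.42.0 (likelihood ratio test), scaling by RLE or by library size, tests on all genes or on those with 10 or more counts in each library, a fit of 2 groups, a replicate block, and each library left out. An adjusted p-value that DESeq2 did not give was kept as missing. The procedure was tested on simulated data. Replicates differed beyond sampling noise (chi-square per gene from 6.56 to 58.4). The labels do not state further what separates samples of a group, so p-values measure the spread between these 12 samples.

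Counts limit low genes such as Cxcl3. Positions are from GENCODE vM21, promoters from RefSeq, aligned with Biopython 1.88, with motif letters chosen after the sequences were seen. The members, lists and rule for named genes (all ligands, receptors, cluster neighbours, other CXC chemokines and growth factors, other lists by counts and by the genes called after both cytokines, and the 3 genes most like each ligand) were chosen with earlier results of these data known. Zfp36, the receptor and adaptor genes, Il1a, the platelet gene Gp5 and the genes beyond the cluster are additions to this rule, picked once their values were known.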

Additional observations from a re-analysis of the deposited data

How the results depend on the processing

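The calls of Cxcl1 and Ppbp after IL-36γ, and of Cxcl1, Cxcl5 and Ppbp after both cytokines, kept direction and threshold under all alternatives that tested them. Leaving out each library in turn gave 0 to 3 ligands called after IL-17A, 2 to 3 after IL-36γ, 3 to 5 after both, 0 to 4 in both against IL-17A, 0 to 0 in both against IL-36γ, 0 to 1 in IL-36γ against IL-17A and 0 to 1 in the interaction. A minimum of 10 counts in each library left only Cxcl1 to test. It was called in each of IL-17A, IL-36γ and both against PBS, in both against IL-17A and in IL-36γ against IL-17A. A fit of only the 2 groups called 0 after IL-17A. DESeq2 called 3 after both, where Cxcl2 got no p-value, and 1 in the interaction, as did no filter (1). With the replicate number as a block, 1 was called in the interaction, Cxcl5 was called after IL-36γ and in both against IL-17A, and Cxcl2 in IL-36γ against IL-17A turned to 0.19. The labels tie no mice by number. Of 18 pairs of same-numbered libraries 9 had a correlation of deviations over 0.1 (median 0.10), and 9 of 36 with other numbers (median −0.05). For IL-36γ and the combination all 3 same-numbered pairs were over 0.1 (0.128, 0.188 and 0.240), and the block called 0 ligands there, as without it. The cause of these shifts was not tested.

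Directions that turned belonged to values not called. With single libraries left out, IL-17A against PBS ran from −0.33 (without IL-17A replicate 1) to 5.09 (without PBS replicate 2) for Cxcl2 and from −1.12 to 4.37 for Cxcl3, with the same libraries. IL-36γ against IL-17A ran from −0.73 to 2.10 for Cxcl2, from −1.41 to 2.45 for Cxcl3 and from −1.16 to 1.02 for Cxcl5, lowest without IL-36γ replicate 2 and highest without IL-17A replicate 1. Cxcl1 in both against IL-36γ ran from −0.63 to 0.16. The interaction ran from −3.64 to 1.78 for Cxcl2, from −2.49 to 3.01 for Cxcl3 and from −2.28 to 0.45 for Cxcl5, lowest without PBS replicate 2 and highest without IL-17A replicate 1.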

Other observations

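All 5 markers of red blood cells rose after IL-17A alone, where 1.07% of all genes were raised, with log2 fold changes from 1.33 to 1.74. After IL-36γ or after both, 0 of 5 were called, with edgeR or with DESeq2 (0 at an unadjusted p below 0.05 in either). Of 6 keratinocyte markers 1, 2 and 3 rose after IL-17A, IL-36γ and both, among them Krt14, a keratin of the basal layer (1.38 ± 0.18 after both), and Krt1 and Flg, genes of the layers above it. Of 4 markers of skeletal muscle 0 were called after both with either tool, 3 of them at an unadjusted p below 0.05, with values from −3.03 to −1.42. Among 4 markers of endothelium, 5 of fibroblasts and 4 of mast cells, 0 were called with either tool after both, with 2, 2 and 0 at an unadjusted p below 0.05.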
